A study of Homo sapiens with 6 samples.

Results

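The 47 genes described here make, activate, burn or store fatty acids. They were taken by symbol from a list of such genes and are 47 of the 14959 genes in the deposited table, where every listed symbol was found. By role, 15 belong to synthesis (supply of acetyl-CoA, malonyl-CoA and palmitate, then elongation and desaturation), 4 to activation (long-chain acyl-CoA synthetases), 19 to oxidation and 9 to storage and mobilization. RNA was sequenced from UM-SCC1 cells, a head and neck squamous carcinoma cell line in long use, 48 h after transfection with miR-204-5p mimics (3 libraries) or control mimics (3 libraries). A mimic is a synthetic double-stranded RNA that supplies the mature miRNA, so the cells hold more of it than they make themselves, and all 6 libraries come from 1 cell line. The dose of the mimics and the sequence of the control were not analysed here. Expression is given as FPKM, the fragments of a gene divided by the length of its transcript and by the size of the library.

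Fatty acid synthesis starts from acetyl-CoA, which ATP citrate lyase makes from citrate in the cytosol. Acetyl-CoA carboxylase turns it into malonyl-CoA, fatty acid synthase builds palmitate from both, and elongases and desaturases then lengthen the chain and add double bonds. Before a long-chain fatty acid can be used it is joined to coenzyme A, and the carnitine shuttle carries it into the mitochondrion, where a repeated cycle of dehydrogenation, hydration, dehydrogenation and thiolysis releases acetyl-CoA. Malonyl-CoA inhibits the entry step of the shuttle, which ties the arms together, and tumour cells are known for active synthesis of their own fatty acids.

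The mimic acts through its seed, bases 2 to 8, which pairs with matching letters in the 3'UTR of an mRNA. The mature miRNA, encoded at chr9:70810031-70810052 on the minus strand (RefSeq, GRCh38.p14), is printed first, with the seed in capitals. It is followed by matches in 3 members: ACSL4 and ELOVL6, which fell and hold more than 1 match each, and SCD, which holds a match of the longest kind but rose. Each window is 30 bases of the transcript strand, with the match in capitals. An 8mer is AAAGGGAA, a 7mer-m8 is AAAGGGA and a 7mer-A1 is AAGGGAA.
hsa-miR-204-5p: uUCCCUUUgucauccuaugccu
ACSL4 8mer, chrX:109643359-109643366: gtaatatatttAAAGGGAAattgagctgct
ACSL4 8mer, chrX:109642869-109642876: tttgggaagttAAAGGGAAgaaaacactgt
ELOVL6 7mer-m8, chr4:110049946-110049952: gaaatgttttaAAAGGGActttagctctgg
ELOVL6 7mer-m8, chr4:110049540-110049546: agtgtacagtaAAAGGGAttttttcgaatt
SCD 8mer, chr10:100361969-100361976: aacatccaaaaAAAGGGAAggatttaagga
All of these matches lie in the last exon and 3'UTR of an annotated protein-coding transcript (GENCODE 29, GRCh38). That is exon 17 of ACSL4 (minus strand), exon 5 of ELOVL6 (minus strand) and exon 6 of SCD (plus strand).

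Spearman correlations over all genes were 0.990 to 0.991 within a group and 0.973 to 0.976 between groups, and summed FPKM ranged from 276822 to 291864. All 8 squamous epithelial markers checked had a mean of at least 1 FPKM, and their summed level was 824 to 916 FPKM with miR-204-5p mimics and 940 to 965 FPKM with control mimics. Single markers moved both ways by limma, with TP63 (log2 fold change -1.01), DSG3 (-1.01), KRT14 (-0.51) and KRT5 (-0.43) lower, KRT6A (0.81), CDH1 (0.39) and SFN (0.26) higher and KRT17 not called. Of 4 immune markers, 2 (CD68 and CD14) passed 1 FPKM, with sums of 21.7 to 24.4 against 26.7 to 27.8 FPKM. Of 6 fibroblast markers 4 were in the table and 1 passed, with sums of 9.81 to 11.6 against 8.58 to 9.41 FPKM, while none of the endothelial or adipocyte markers did. The part of these shifts in the results was not tested. All 6 libraries come from 1 cell line, so the sums give RNA levels in that line and not numbers of other cell types. Bulk RNA does not show whether all cells of the line changed alike.

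Of the 47 members, 7 were lower with miR-204-5p mimics and 17 were higher, by limma at a Benjamini-Hochberg adjusted p under 0.05, and 23 were not called. Over all genes tested, 16.8% were lower and 23.9% higher; among genes with a mean of at least 1 FPKM, which 46 of the 47 members reach, 20.1% were lower and 27.7% higher. The members' shares were 14.9% lower and 36.2% higher, so the falling share was near the background and the rising share above it, and no test of that difference was made. Their median log2 fold change was 0.09, against 0.03 over all genes and 0.04 over genes with a mean of at least 1 FPKM. In 10 members every library with miR-204-5p mimics lay below every control library, and in 18 every one lay above, against 22.7% and 30.9% of all genes. Fold changes here are differences of mean log2(FPKM + 1), which understate the change of genes with few FPKM.

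The changes were small for most members. The median absolute log2 fold change was 0.18, against 0.18 over all genes and 0.22 over genes with a mean of at least 1 FPKM. Of the 47, 7 reached 0.5, and each of these was called. Calls that reached 0.5 numbered 1789 of all 14959 genes. Among genes with a mean of at least 1 FPKM they numbered 1705 of 11504, so the members' count was near the background. With a pseudocount of 0.1 in place of 1, 11 members reached 0.5, with ACSL5, ACAA2, DGAT2 and LIPE added. The count over all genes with that pseudocount is not given here. Of the 24 calls, 17 held in all 12 alternative fits, 4 of them lower (ELOVL6, ACSL4, ECHS1 and PLIN2) and 13 higher. The count of lower calls fell from 7 whichever library was left out. It was 4 without miR-204-5p mimics replicate 1, 4 without replicate 2 and 6 without replicate 3. Likewise it was 4 without control mimics replicate 1, 4 without replicate 2 and 6 without replicate 3. Calls over all genes also fell in each of these fits, from 6098 to at most 5371.

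**Figure D1:**
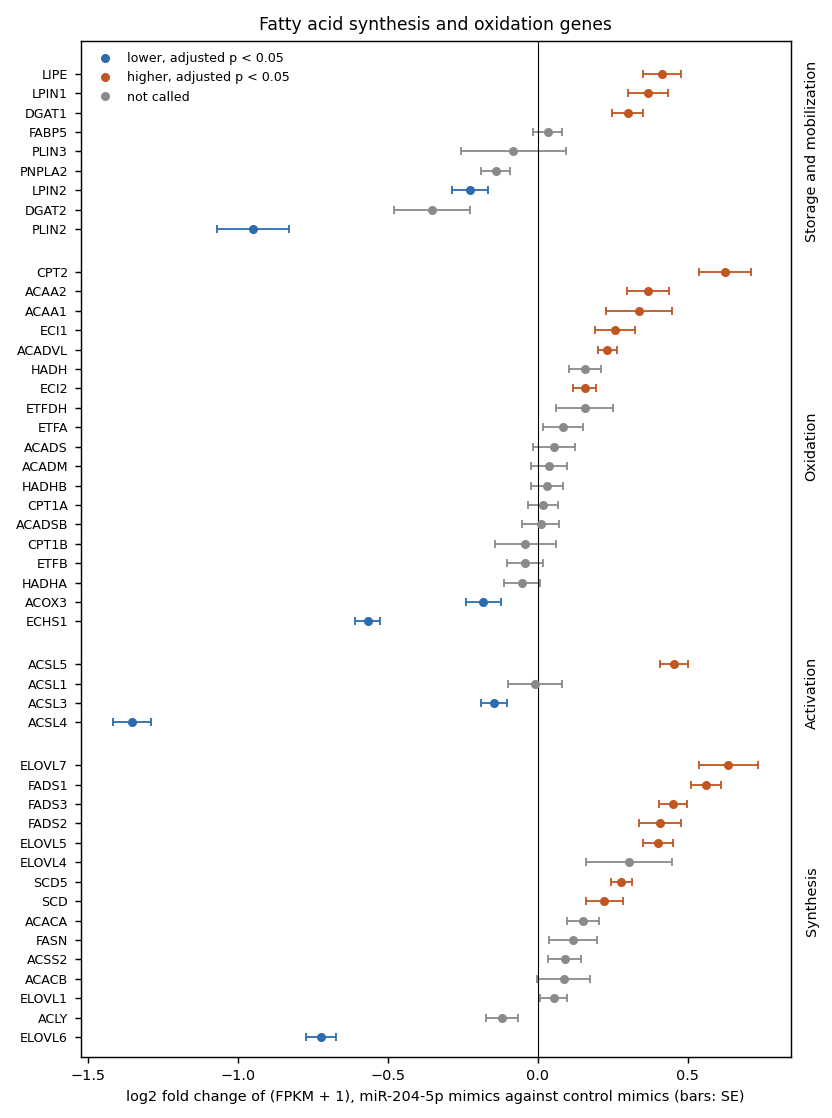
Log2 fold change of (FPKM + 1), miR-204-5p mimics over control mimics, for the 47 members grouped by arm. Points are limma estimates, bars are the SE, which is narrower than a 95% interval, and colour marks the call. ACSL4 lies farthest to the left at -1.35, and the 5 desaturases all lie to the right of 0.

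The route from acetyl-CoA to palmitate did not pass the test at any of its 5 genes, ACLY, ACSS2, ACACA, ACACB and FASN. Their median log2 fold change was 0.09. By limma's unadjusted p under 0.05 it was 1 of 5, ACACA, and the share of all genes at that threshold is not given here. ACLY, which makes cytosolic acetyl-CoA, was measured at 59.3, 65.8 and 66.1 FPKM with miR-204-5p mimics and at 71.7, 68.0 and 68.1 FPKM with control mimics. Its libraries did not overlap between groups, but the log2 fold change of -0.12 did not pass the test (limma adjusted p = 0.117), with a 95% interval of -0.24 to 0.01. ACACA, the carboxylase isoform that feeds synthesis, stood at 17.8, 18.3 and 18.1 FPKM against 17.2, 16.2 and 15.2 FPKM. Here the mimic libraries were all above the controls, at a difference of 0.15 (adjusted p = 0.0624 by limma), and the gene was called only without control mimics replicate 1 (adjusted p = 0.0330). FASN, the synthase itself, read 110, 122 and 137 FPKM against 115, 114 and 109 FPKM. Here the groups overlapped, and the interval of the log2 fold change ran from -0.08 to 0.31 (limma adjusted p = 0.293). ACSS2, which makes acetyl-CoA from acetate, and ACACB, the carboxylase isoform at the mitochondrial surface, differed by 0.09 each (limma adjusted p = 0.240 and 0.474).

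The genes that modify the finished chain moved more. All 5 desaturases were higher with miR-204-5p mimics, with a median log2 fold change of 0.41, and every one kept its direction under each scaling tried. FADS1, a desaturase of polyunsaturated fatty acids, rose most, from 12.2, 12.0 and 12.2 FPKM with control mimics to 17.3, 19.4 and 18.4 FPKM, a ratio of 1.51 (limma log2 difference 0.56 ± 0.05 SE, adjusted p = 0.000407). Its groups were far apart, with the lowest mimic library well above the highest control. FADS2, its partner in the same pathway, rose from 3.25 ± 0.226 to 4.63 ± 0.275 FPKM (SD, n = 3; limma log2 difference 0.41, adjusted p = 0.00452). The transcript listed for FADS2 is 385 bases long and shares 12.7% of them with FEN1 on the same strand, and FEN1 itself differed by 0.02 (limma adjusted p = 0.828). FADS3, the neighbouring family member, rose from 35.7 ± 2.08 to 49.1 ± 0.685 FPKM (limma log2 difference 0.45, adjusted p = 0.000704).

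SCD, the stearoyl-CoA desaturase that makes monounsaturated fatty acids, had the highest level of the synthesis genes. It was measured at 179, 196 and 211 FPKM with miR-204-5p mimics and at 170, 167 and 164 FPKM with control mimics. The groups did not overlap, and the log2 fold change of 0.22 passed the test (limma adjusted p = 0.0287) but lost the call in 8 of the 12 alternatives, with adjusted p up to 0.117. Leaving out 1 library ended it without miR-204-5p mimics replicate 2 (0.0811) or 3 (0.0545) and without control mimics replicate 1 (0.0614), 2 (0.0790) or 3 (0.0817). SCD5, the second stearoyl-CoA desaturase of humans, rose from 24.1 ± 0.577 to 29.4 ± 0.134 FPKM (limma log2 difference 0.28, adjusted p = 0.00140) and kept its call in every alternative.

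The elongases divided. ELOVL6, which lengthens palmitate, fell by 0.72 on the log2 scale (SE 0.05, limma adjusted p = 0.000163). Its level was 5.36, 5.65 and 5.50 FPKM with miR-204-5p mimics against 9.41, 9.85 and 9.95 FPKM with control mimics, 1.77-fold lower, with a wide gap between the groups. ELOVL7, which lengthens saturated long-chain acids, went the other way, from 5.69, 4.61 and 5.41 FPKM to 9.41, 9.03 and 7.64 FPKM (limma log2 difference 0.64 ± 0.10 SE, adjusted p = 0.00313). ELOVL6 therefore made up 36.3% to 41.9% of the summed FPKM of the pair with miR-204-5p mimics and 62.3% to 68.1% with control mimics. ELOVL5, the elongase of polyunsaturated acids that works beside FADS1 and FADS2, rose from 34.5 ± 0.970 to 45.9 ± 2.61 FPKM (limma log2 difference 0.40, adjusted p = 0.00133). ELOVL1 and ELOVL4, which act on very long chains, differed by 0.05 and 0.31 and were not called (limma adjusted p = 0.394 and 0.138). Desaturases and elongases together gave 7 higher and 1 lower of 10, with a median log2 fold change of 0.35. Among genes with a mean of at least 1 FPKM, 27.7% were higher and 20.1% lower, and no test of the difference was made. The 7 include SCD, which lost its call in 8 of the 12 alternatives.

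**Figure D2:**
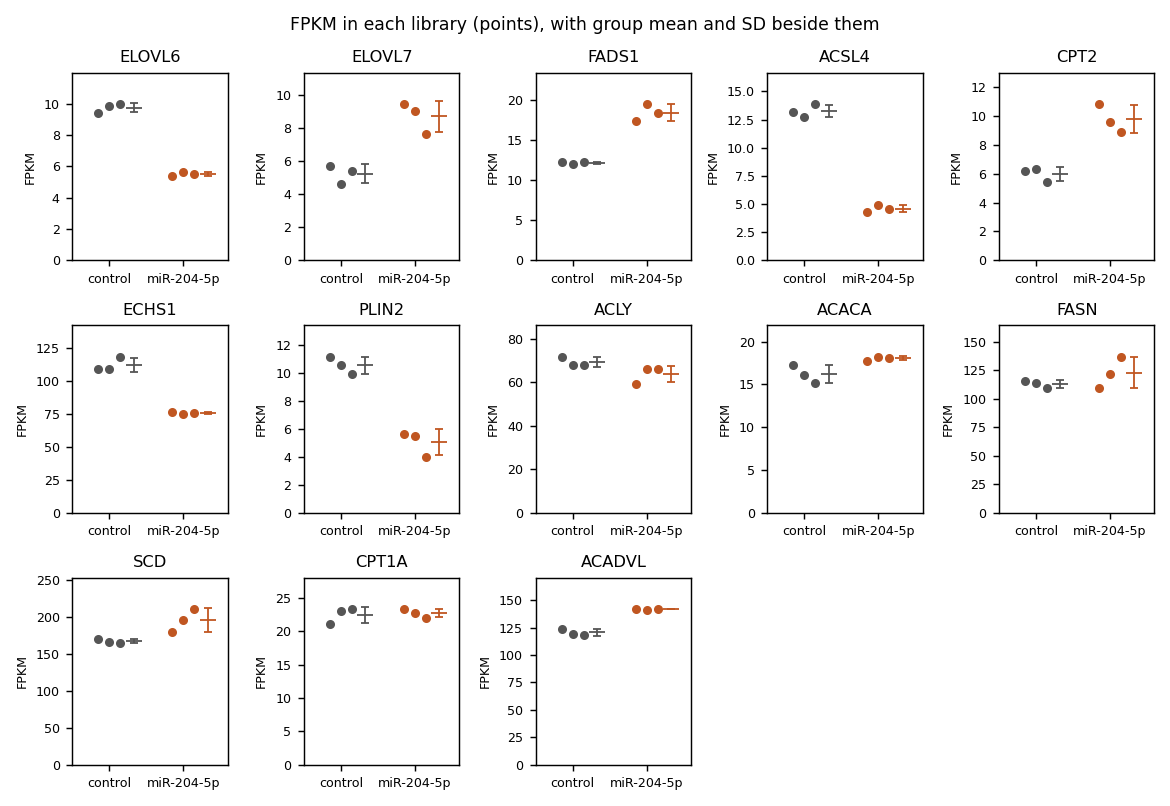
FPKM of 13 members in each library (points), with the group mean and SD (bars, n = 3) beside them; each panel has its own axis starting at 0. The groups are well apart for ELOVL6, FADS1, ACSL4, ECHS1 and PLIN2 and overlap for FASN and CPT1A.

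The acyl-CoA synthetases, which activate fatty acids, held the largest change of the 47. ACSL4, the isoform that favours arachidonate and other polyunsaturated acids, stood at 4.28, 4.93 and 4.54 FPKM with miR-204-5p mimics and at 13.2, 12.7 and 13.8 FPKM with control mimics. Every mimic library was below every control by a wide margin, at 2.89-fold lower in mean FPKM (limma log2 difference -1.35 ± 0.06 SE, adjusted p = 5.77e-05). ACSL5, an isoform of mitochondria and the endoplasmic reticulum, rose from 7.13 ± 0.1204 to 10.1 ± 0.229 FPKM (limma log2 difference 0.45, adjusted p = 0.000582). ACSL3, an isoform of the endoplasmic reticulum and lipid droplets, fell by 0.15 on the log2 scale (20.2 ± 0.654 to 18.1 ± 0.470 FPKM, limma adjusted p = 0.0339). Its call was lost in 7 of the 12 alternatives, when any 1 of the 6 libraries was left out (adjusted p 0.0509 to 0.0973) and with a replicate block (0.0749). ACSL1 differed by -0.01 (limma adjusted p = 0.943). As a share of the summed FPKM of the 4 synthetases, ACSL4 went from 25.2% to 27.0% in control libraries to 10.3% to 11.2% with miR-204-5p mimics, and ACSL5 from 13.9% to 14.2% to 23.1% to 24.2%.

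In the oxidation arm, 6 of 19 genes were higher and 2 lower, with a median log2 fold change of 0.05. CPT1A, the carnitine palmitoyltransferase that controls entry into the mitochondrion, was measured at 23.4, 22.8 and 22.1 FPKM with miR-204-5p mimics and 21.1, 23.0 and 23.3 FPKM with control mimics. The groups overlapped, and the log2 fold change of 0.02 had a 95% interval of -0.10 to 0.14 (limma adjusted p = 0.830) and took the other sign under 3 scalings. CPT1B, the muscle isoform, differed by -0.04 (limma adjusted p = 0.773), but 96.4% of its listed transcript is shared with the CHKB-CPT1B readthrough gene on the same strand, so its level is uncertain. CPT2, which releases the acyl-CoA inside the mitochondrion, rose from 6.18, 6.31 and 5.42 FPKM to 10.8, 9.59 and 8.88 FPKM, 1.63 times the control (limma log2 difference 0.62 ± 0.09 SE, adjusted p = 0.00195). The lowest mimic library was above the highest control.

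Of the acyl-CoA dehydrogenases, which take the first step of the cycle, 1 of 4 was called. ACADVL, which acts on very long and long chains, stood at 142, 142 and 142 FPKM with miR-204-5p mimics and 124, 119 and 119 FPKM with control mimics (limma log2 difference 0.23 ± 0.03 SE, adjusted p = 0.00205). The mimic libraries were nearly equal and all above the controls. ACADM, ACADS and ACADSB, for medium, short and short branched chains, differed by 0.04, 0.05 and 0.01 and were not called (limma adjusted p from 0.585 to 0.918), and ACADM under equal sums and ACADSB under all 3 scalings took the other sign.

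ECHS1, the mitochondrial hydratase of the second step, fell most among the 19 oxidation members. It read 76.1, 74.4 and 75.5 FPKM with miR-204-5p mimics and 109, 109 and 118 FPKM with control mimics. The groups were far apart, 1.49-fold lower in mean FPKM (limma log2 difference -0.57 ± 0.04 SE, adjusted p = 0.000195). ACAA2, the mitochondrial thiolase, rose from 1.503 ± 0.0777 to 2.23 ± 0.220 FPKM (limma log2 difference 0.37, adjusted p = 0.00688). HADHA and HADHB, the subunits of the trifunctional protein for long chains, whose genes start 1556 bases apart, differed by -0.05 and 0.03 (limma adjusted p = 0.512 and 0.688), the latter with the other sign under equal sums. HADH, the dehydrogenase for shorter chains, differed by 0.16 (limma adjusted p = 0.0529) and was called only when genes under a mean of 1 FPKM were left out (0.0377).

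The isomerases ECI1 and ECI2, which let unsaturated fatty acids enter the cycle, were both higher, by 0.26 and 0.16 on the log2 scale (limma adjusted p = 0.0230 and 0.0182). ECI1 lost its call without miR-204-5p mimics replicate 1 (adjusted p = 0.0600) or 3 (0.0559), without control mimics replicate 2 (0.0697) or 3 (0.0705) and under equal sums (0.0524). ECI2 lost it without miR-204-5p mimics replicate 2 (0.0528), without control mimics replicate 1 (0.0606) and with a replicate block (0.0677). In peroxisomes, the thiolase ACAA1 was higher by 0.34 (limma adjusted p = 0.0499) with overlapping libraries, and the oxidase ACOX3 was lower by 0.18 (its log2 fold change was -0.18, limma adjusted p = 0.0442). Each of these lost the call in 7 of 12 alternatives. For ACAA1 these were the 3 scalings and the fits without miR-204-5p mimics replicate 1 (adjusted p = 0.135) or 3 (0.136) and without control mimics replicate 2 (0.138) or 3 (0.136). For ACOX3 they were the replicate block and every fit without 1 library (adjusted p 0.0511 to 0.122). None of the 3 genes that pass electrons from the dehydrogenases to the respiratory chain (ETFA, ETFB, ETFDH) was called, with differences of 0.08, -0.04 and 0.16. At an unadjusted limma p under 0.05 it was 0 of 3, and the share of all genes at that threshold is not given here.

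Set side by side, the synthesis arm had 7 higher and 1 lower of 15 (median log2 fold change 0.22) and the oxidation arm 6 higher and 2 lower of 19 (median 0.05). As shares these are 46.7% higher and 6.67% lower in the synthesis arm and 31.6% higher and 10.5% lower in the oxidation arm, against 27.7% and 20.1% of genes with a mean of at least 1 FPKM, so the rises of the oxidation arm were near the background. The medians are over few genes and carry no test, and the oxidation median was 0.013 under equal sums and 0.032 under equal medians. By library, the summed FPKM of the synthesis genes was 631, 674 and 696 with miR-204-5p mimics against 601, 583 and 586 with control mimics, with no overlap. The summed FPKM of the oxidation genes was 631, 607 and 604 against 604, 603 and 612, with overlap. The ratio of synthesis to oxidation was 1.00, 1.11 and 1.15 with miR-204-5p mimics and 0.996, 0.966 and 0.957 with control mimics, so miR-204-5p mimics replicate 1 lay just above the highest control. SCD and FASN carry much of the synthesis sum, and without control mimics replicate 2 the synthesis median was 0.15. The sums also move with the library: as a share of each library's summed FPKM, synthesis made up 0.216%, 0.237% and 0.246% with miR-204-5p mimics and 0.217%, 0.210% and 0.209% with control mimics, so the groups overlapped at miR-204-5p mimics replicate 1. On that scale oxidation made up 0.216%, 0.213% and 0.213% against 0.218%, 0.217% and 0.219%, slightly lower in every mimic library. For the 10 desaturases and elongases the sums were 418, 440.5 and 445 FPKM against 370.1, 359 and 369 FPKM, and the shares of the library (0.143% to 0.157% against 0.129% to 0.134%) did not overlap either.

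**Figure D3:**
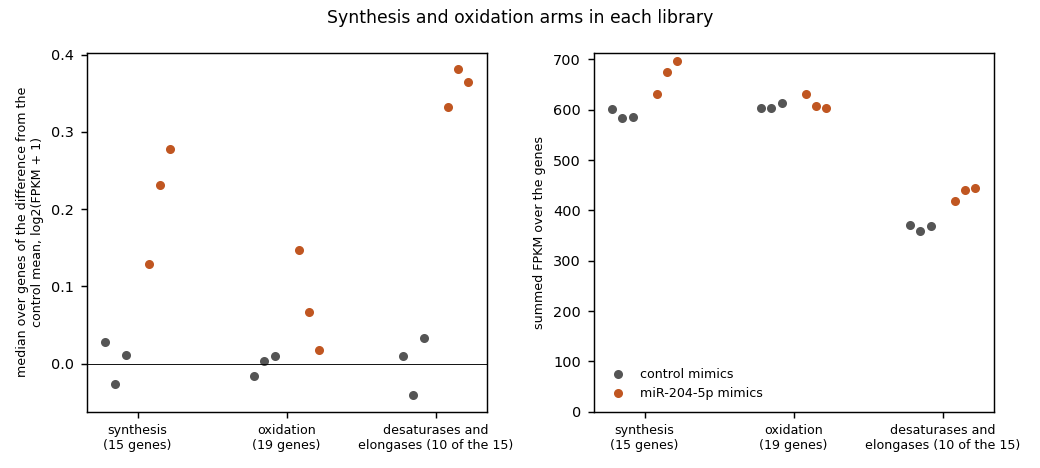
Summed FPKM of the synthesis genes (15), the oxidation genes (19) and the desaturases and elongases (10) in each library, and the median difference of each arm's genes from the control mean on the log2(FPKM + 1) scale. The synthesis sums of the 3 mimic libraries (631 to 696) lie above the controls (583 to 601), and the oxidation sums overlap; as shares of each library's summed FPKM the synthesis groups overlap.

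Of the 9 storage and mobilization genes, 2 were lower (22.2%) and 3 higher (33.3%). Among genes with a mean of at least 1 FPKM these shares were 20.1% and 27.7%, so both counts were near the background. PLIN2, which coats lipid droplets, was measured at 5.67, 5.50 and 3.97 FPKM with miR-204-5p mimics and 11.2, 10.6 and 9.96 FPKM with control mimics. The groups were well apart, 2.10-fold lower in mean FPKM (limma log2 difference -0.95 ± 0.12 SE, adjusted p = 0.00136). PLIN3, another coat protein, ranged from 33.3 to 50.6 FPKM against 38.9 to 53.7 FPKM and was not called (limma log2 difference -0.08, adjusted p = 0.748).

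Triacylglycerol synthesis was mixed. DGAT1, which adds the last acyl chain, rose from 18.2 ± 0.292 to 22.6 ± 1.36 FPKM (limma log2 difference 0.30, adjusted p = 0.00453). DGAT2, an unrelated enzyme for the same reaction, had a log2 fold change of -0.35 with no overlap between groups (limma adjusted p = 0.0660), and was called without control mimics replicate 3 (0.0199) and after quantile normalization (0.0365). LPIN1, a phosphatidate phosphatase, rose from 3.50 ± 0.250 to 4.80 ± 0.237 FPKM (limma log2 difference 0.37, adjusted p = 0.00613). LPIN2, its relative, fell by 0.23 on the log2 scale (limma adjusted p = 0.0240). That call was lost without miR-204-5p mimics replicate 1 (0.0654) or 2 (0.0539), without control mimics replicate 1 (0.0756) or 2 (0.0676) and with a replicate block (0.0759). Among the lipases, LIPE, hormone-sensitive lipase, rose from 1.33 ± 0.0786 to 2.11 ± 0.148 FPKM (limma log2 difference 0.41, adjusted p = 0.00282). PNPLA2, adipose triglyceride lipase, had a log2 fold change of -0.14 with no overlap (limma adjusted p = 0.0598), and was called without miR-204-5p mimics replicate 3 (0.0297) and under equal medians (0.0367) or equal sums (0.0308). FABP5, a fatty acid binding protein, was listed at 0.183 ± 0.0306 against 0.157 ± 0.0560 FPKM, a level at which no change could be read; GENCODE 29 holds 13 pseudogenes of FABP5, and how reads were shared with them is not given in the sources used here.

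Matches to the miR-204-5p seed were searched on the transcript strand of each gene, in its longest annotated 3'UTR. At least 1 match was present in 15 of the 47 members (31.9%), against 27.1% of the 14654 genes with a 3'UTR. By the best match, 3 members held an 8mer (ACACA, SCD and ACSL4), 6 a 7mer-m8 (ELOVL4, ELOVL5, ELOVL6, FADS1, ACSL5 and LPIN2) and 6 a 7mer-A1 (ACLY, ACACB, CPT1B, ACADSB, ACOX3 and ETFA). ACSL4 held both 8mers printed above and a 7mer-A1. ELOVL6 held the 7mer-m8 matches printed above and another at chr4:110050383-110050389, and SCD held a 7mer-A1 beside its 8mer. Of the 7 members that were lower, 4 held a match (ELOVL6, ACSL4, ACOX3 and LPIN2) and 3 did not (ACSL3, ECHS1 and PLIN2). Of the 17 that were higher, 4 held one (SCD, ELOVL5, FADS1 and ACSL5) and 13 did not. The matches of FADS1, CPT1B and ACADSB lie outside the transcripts listed for those genes in the table. Of the members with a match, 26.7% were lower and 26.7% higher, against 9.38% and 40.6% of the members without. Over all genes, 27.0% of those with a match were lower and 16.4% higher, against 13.5% and 27.2% of those without. A match is a string of letters, and whether the miRNA bound any of them was not measured here.

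**Figure D4:**
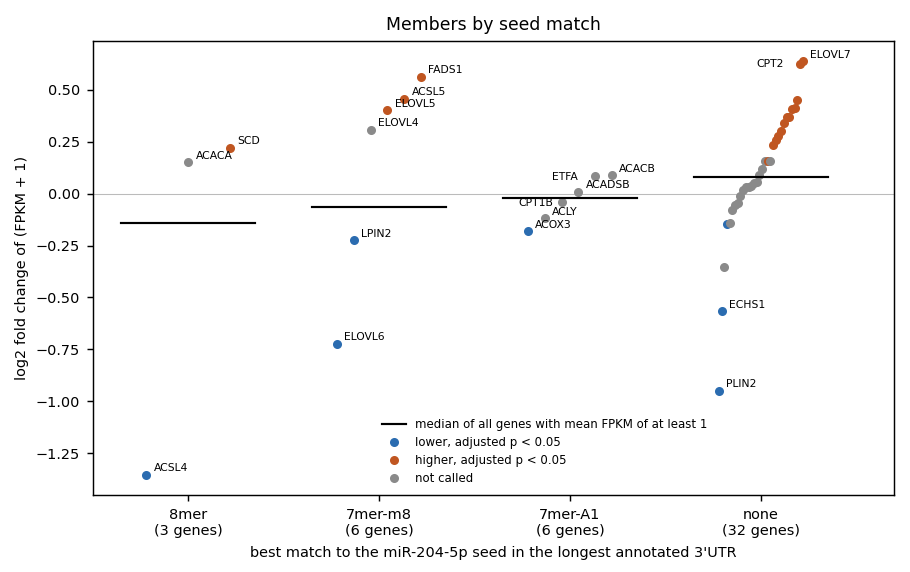
Log2 fold change of (FPKM + 1) of the 47 members by best seed match in the longest annotated 3'UTR (3 with an 8mer, 6 with a 7mer-m8, 6 with a 7mer-A1 and 32 with none); bars are medians of all genes with a mean of at least 1 FPKM. ACSL4 and ELOVL6 are the lowest of their classes, while SCD, FADS1, ACSL5 and ELOVL5 hold a match and were higher, and PLIN2 and ECHS1 hold none and were lower.

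Promoters were available for 40 of the 47 members (RefSeq, GRCh38.p14, 250 bases before to 50 after the start). The letters TCACNCCAC, a form of the sterol regulatory element, were found on either strand in 2 of them (ACSL1 and PNPLA2, 5%), against 1.13% of 35116 promoters, and neither gene was called. The ACSL1 promoter searched, chr4:184805504-184805803, lies inside the listed transcript, which starts at 184826119 on the minus strand. It therefore belongs to another start than that of the listed transcript. The letters TNAAGGTCA, a form of the estrogen-related receptor element, were found in none of the 40, against 0.951% of all promoters.

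Other genes of the same pathways were taken from a list of 118, of which 101 were in the table. Of these, 13 were lower (12.9%) and 35 higher (34.7%), with a median log2 fold change of 0.09. Over all genes the shares were 16.8% lower and 23.9% higher. Among genes with a mean of at least 1 FPKM, which 84 of the 101 reach, they were 20.1% and 27.7%. Other synthesis genes gave 9 higher (52.9%) and 0 lower of 17 by limma, with a median of 0.27. At an unadjusted limma p under 0.05 they gave 10 higher and 0 lower, and the share of all genes at that threshold is not given here. Other oxidation genes gave 10 higher (33.3%) and 4 lower (13.3%) of 30, and regulation genes 7 higher and 3 lower of 19. Other activation genes gave 4 higher and 1 lower of 12, and other storage and mobilization genes 5 higher and 5 lower of 23. INSIG1, which retains the sterol sensor of the SREBP pathway in the endoplasmic reticulum, rose from 9.81 ± 0.616 to 25.5 ± 1.53 FPKM (limma log2 difference 1.29, adjusted p = 6.74e-05). ACSS1, the mitochondrial acetyl-CoA synthetase, rose from 2.25 ± 0.0757 to 5.76 ± 0.261 FPKM (limma log2 difference 1.06, adjusted p = 8.92e-05). AGPAT5, an acyltransferase of glycerolipid synthesis, rose from 7.10 ± 3.14 to 15.5 ± 0.250 FPKM (limma log2 difference 1.10, adjusted p = 0.0118), with control libraries at 10.7, 4.96 and 5.63 FPKM.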

How the data were processed

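The 3 miR-204-5p and 3 control transfections of UM-SCC1 were sequenced as RNA libraries; the design text calls them independent experiments. The FPKM values, 1 column per library and 1 listed transcript per gene, were deposited by the authors. The submitters' processing notes name HISAT2, StringTie and hg38, without versions or roles. The log2 ratio and the p-value and FDR of the authors' own edgeR comparison were also deposited and were not used. FPKM depends on the listed transcript's length, and 6 of the 47 members have one under 1 kb, so levels of different genes compare only roughly. The planned count test was replaced by limma, since no counts could be recovered. Depth was inferred from steps in low FPKM: 1 fragment on 1 kb was worth 0.0610 to 0.0766 FPKM (an implied 13.1 to 16.4 M fragments, M being 1e6), but only 25.1% to 28.3% of low values were whole multiples (tolerance 0.02).

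All 14959 genes were fitted as log2(FPKM + 1) with limma 3.58.1 in R 4.3.3 (empirical Bayes with a trend, no filter), and p-values were adjusted over all genes by the Benjamini-Hochberg method at 0.05. On simulated data for this comparison over 14959 genes, 172 of 200 changed genes were called, beside 11 unchanged ones. The planted log2 changes were 0.5 or 1 in size, in genes with a mean of at least 1 FPKM. That share does not carry over to smaller changes, and the members' median absolute log2 fold change was 0.18. Values in every library are given for members with an adjusted p under 0.05 and an absolute log2 fold change of at least 0.5, and for ACLY, ACACA, FASN, SCD, CPT1A and ACADVL whatever their values; other pathway genes are named at an absolute log2 fold change of at least 1 and a mean of at least 1 FPKM. Members and lists were chosen with earlier results of these data known. The 3'UTRs came from GENCODE 29, in which all 47 listed transcripts were found with the same coordinates. Not every seed match is printed here. Alternatives were a pseudocount of 0.1, a minimum mean of 1 FPKM, scaling to equal medians or equal sums, quantile normalization, a replicate block and leaving out each library. A second count test was not run, for lack of counts.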

Additional observations from a re-analysis of the deposited data

How the results depend on the processing

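No called member changed direction in the 12 alternatives, and 17 of 24 calls held in all of them (4 lower, 13 higher). With a replicate block, 4 members were lower instead of 7 and 1 oxidation gene instead of 2; the cause was not tested. The replicate numbers did not pair the libraries (correlations of same-numbered deviations -0.04, -0.02 and -0.11 over 11504 genes). No library correlated best with its own number in the other group. Leaving out 1 library at a time gave 4 to 6 members lower, 14 to 16 higher, 1 to 1 oxidation genes lower and 4 to 5 higher, 1 to 1 synthesis genes lower and 6 to 7 higher. Over all genes it gave 4971 to 5371 calls. The synthesis median ranged from 0.15 to 0.28 and the oxidation median from 0.05 to 0.08. Scaling moved the oxidation median from 0.05 to 0.032 (equal medians), 0.013 (equal sums) and 0.042 (quantile normalization), and the synthesis median from 0.22 to 0.20, 0.18 and 0.19. With a pseudocount of 0.1, 11 members instead of 7 had an absolute log2 fold change of at least 0.5. Members that were not called changed sign. CPT1A was -0.0066 under equal medians, -0.026 under equal sums and -0.017 after quantile normalization. ACADSB was -0.0100, -0.027 and -0.050 in the same order. ACADM was -0.0039 and HADHB -0.012 under equal sums. Without 1 library, ACSL1 ranged from -0.075 to 0.060, CPT1A from -0.026 to 0.042, CPT1B from -0.11 to 0.066, ACADS from -0.015 to 0.10, ACADSB from -0.020 to 0.053, HADHA from -0.091 to 0.010, HADHB from -0.027 to 0.064 and PLIN3 from -0.22 to 0.078. The median log2 fold change of all genes was 0.03 and went as low as -7e-05 after quantile normalization, which moved the higher share of calls from 58.7% to 50.1%. Depth is known only by inference, so counting error was not modelled apart from the spread between libraries, on which the intervals rest.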

Other observations

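SREBF1, CBR4, HSD17B8 and MECR were chosen after their values were seen, from the list of other pathway genes. SREBF1, the transcription factor that drives genes of fatty acid synthesis, rose from 15.7 ± 0.518 FPKM with control mimics to 24.7 ± 1.83 FPKM with miR-204-5p mimics (SD, n = 3; limma log2 difference 0.62, adjusted p = 0.000530). The other 3 belong to mitochondrial fatty acid synthesis, a separate route inside the mitochondrion, of which MCAT (log2 difference -0.10, limma adjusted p = 0.299) and OXSM (0.21, adjusted p = 0.0694) were also listed and were not called. HSD17B8 rose from 13.2 ± 0.873 to 25.5 ± 1.15 FPKM (limma log2 difference 0.90, adjusted p = 0.000139) and CBR4, its partner in the ketoacyl reductase, from 3.10 ± 0.315 to 6.26 ± 0.341 FPKM (limma log2 difference 0.83, adjusted p = 0.000459). MECR, which takes the last reduction of that cycle, rose from 7.47 ± 0.746 to 11.1 ± 0.842 FPKM (limma log2 difference 0.51, adjusted p = 0.00391).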
